A study of Mus musculus with 12 samples.

Results

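The abundance of muscle, matrix, metabolic and regulatory transcripts was described in the unmodified C2C12 parent line after 14 days of differentiation. The 6 libraries labelled wild type were taken from the 12 of the series by their label and column name; the other 6, from a C2C12 line that carries the RGECO calcium indicator, were not used and are not compared. C2C12 is a single established line of mouse myoblasts, the proliferating precursors of skeletal muscle fibres, so all 6 libraries share 1 genetic background. The labels name no other cell type in these cultures. The cells were grown on a hydrogel of methacrylated gelatin. Growth medium held 10% fetal bovine serum, and differentiation medium held 10% inactivated horse serum, 50 ng/ml IGF-1 and 1 mg/ml aminocaproic acid, an inhibitor of plasmin; every library shares these additions. Polyadenylated RNA was selected, amplified for 14 PCR cycles and read as pairs of 50 bases. The labels do not say whether the 6 samples came from separate cultures, so every spread below is between these 6 samples and may be technical. Every p-value below likewise rests on these 6 samples and speaks for them only.

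When myoblasts leave the cell cycle, the transcription factors MyoD and myogenin switch on muscle genes, and the cells fuse into multinucleated myotubes that assemble sarcomeres, the repeating units of thick myosin and thin actin filaments. Many sarcomere and metabolic proteins exist as several gene copies: embryonic and cardiac-type copies are known from early muscle, and adult fast or slow copies replace them as fibres mature and receive nerves. The surrounding matrix of collagens, laminins and glycoproteins, made partly by the muscle cells themselves, anchors the fibre through integrins and the dystrophin complex.

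Levels are in TPM, a scale that divides reads by transcript length and adds up to 1000000 transcripts in each library, so genes can be set side by side. Unless stated otherwise, each value is the mean over the 6 libraries ± its standard deviation (SD, n = 6), and the libraries are called WT 1 to WT 6. Depth ran from 9370322 to 11744314 estimated counts per library, and 18890 to 20153 gene symbols had at least 1 read assigned. A gene with no count in any library could still be present at up to 0.05003 CPM (counts per 1000000) over the 6 libraries (3 counts of the total; counting error only). Levels of any 2 libraries correlated with Spearman coefficients of 0.908 to 0.964 across genes of at least 1 TPM, and no 2 libraries were alike within counting noise (smallest chi-square per gene over 15 pairs, 7.72). Mean TPM reached 1 for 13397 genes, 10 for 7860, 100 for 1102 and 1000 for 105. The 105 genes at or above 1000 TPM held 51.4% of all TPM, a share that includes the structural RNAs described below.

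The 66 sarcomere genes listed together held 3.72 ± 0.233% of TPM, with a lowest share of 3.48% in WT 4 and a highest of 4.04% in WT 3. Excitation and membrane genes (81, among them calcium-handling, synaptic, dystrophin-complex and myoblast fusion genes) held 0.871 ± 0.0594%. Extracellular matrix and adhesion genes (102) held 1.58 ± 0.150%, and nuclear genes of energy metabolism (167) held 4.45 ± 0.196%. Ribosomal proteins and translation factors (95) held 11.96 ± 0.491%, while 108 regulators of myogenesis, fibre type, growth, energy supply and the cell cycle together held 0.607 ± 0.0638%. None of these classes had as wide a ratio of its highest to its lowest library as the 13 mitochondrially encoded genes, whose share ran from 0.182% in WT 2 to 1.83% in WT 6. A further 6 structural RNAs (Rn7s1, Rn7s2, Rn7sk, Rpph1, Rmrp and Rn18s-rs5) took 29.6 ± 4.06% of TPM but only 3.95 ± 1.46% of the estimated counts. Every TPM share above is therefore a share of a total that these RNAs fill in part.

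**Figure D1:**
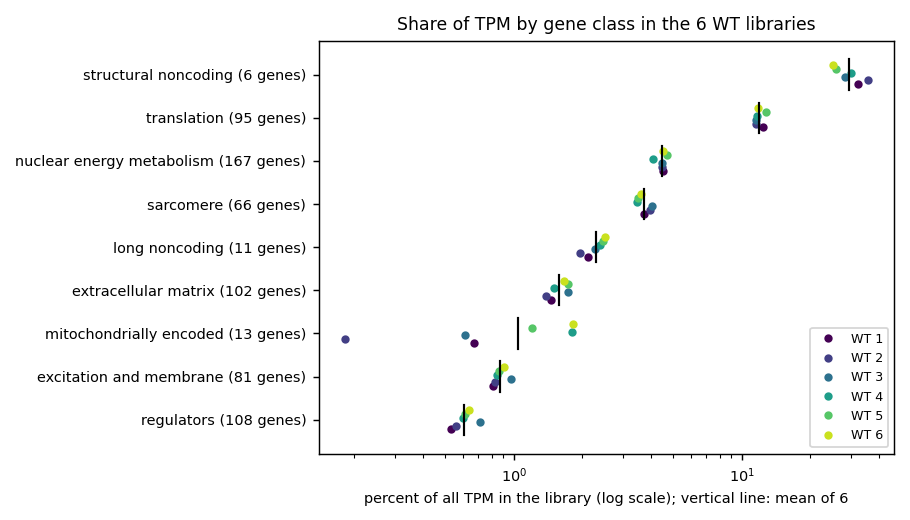
Percent of all TPM held by each gene class (log scale) in the 6 libraries; each point is 1 library and the vertical line is the mean of 6. The points of most classes lie close together, while the mitochondrially encoded class spreads from 0.182% in WT 2 to 1.83% in WT 6.

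The most abundant transcript outside the structural RNAs was H19, an imprinted long noncoding RNA of fetal tissue and differentiating muscle, at 20004 ± 910.3 TPM. Its lowest library was WT 2 at 18854 TPM, its median was 20032 TPM and its highest library was WT 5 at 21502 TPM. The H19 coefficient of variation (CV, the SD as a percent of the mean) was 4.55%, among the smaller ones of the genes described here. H19 is also the host transcript of a microRNA whose mature forms are shown because they are the known product of this RNA; the microRNA itself was not measured by these libraries. Both lie on chromosome 7 of GRCm38.p6 on the minus strand (RefSeq), the 3p form at chr7:142577078-142577099 and the 5p form at chr7:142577112-142577133. The capitals mark the seed, bases 2 to 8, and the seeds of the 2 arms differ.
mmu-miR-675-3p: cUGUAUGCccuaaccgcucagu
mmu-miR-675-5p: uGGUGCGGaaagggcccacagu

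Next in abundance came the translation factor Eef1a1 at 8771 ± 1156 TPM and the glycolytic enzyme Gapdh at 8162 ± 934 TPM. Skeletal alpha-actin, Acta1, stood at rank 11 of all genes with 7392 ± 523 TPM. Its lowest library was WT 4 at 6527 TPM, its median 7433 TPM and its highest WT 2 at 7929 TPM. Other muscle genes among the 25 most abundant were the myosin light chains Myl1 and Mylpf, troponin C gene Tnnc1 and myoglobin, Mb. The 25 most abundant genes together held 39.9% of TPM, and the 6 structural RNAs, all of them among the 25, held 29.6%.

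Thick filaments carry myosin heavy chains, the motors of contraction, and the heavy chain genes were expressed as a mixture. Of 10 heavy chain genes of striated muscle, 8 had a mean of at least 1 TPM and 4 of at least 100 TPM, and they summed to 1111 ± 126 TPM. Embryonic Myh3 stood at 303 ± 52.2 TPM, from 234 TPM in WT 1 through a median of 300.4 to 369.7 TPM in WT 3. Slow Myh7 stood at 283 ± 22.1 TPM, from 262 TPM in WT 1 through a median of 279 to 320.4 TPM in WT 4. Adult fast Myh1 (type IIx) stood at 234 ± 25.7 TPM, from 194 TPM in WT 1 through a median of 239 to 269.8 TPM in WT 3. The ranges of these 3 genes overlapped, and all were lowest in the same library. Perinatal Myh8 reached 158 ± 20.8 TPM and fast Myh4 (type IIb) reached 94.8 ± 24.1 TPM. The adult fast type IIa gene Myh2 was far lower at 7.43 ± 1.59 TPM, and cardiac alpha-chain Myh6 stood at 17.9 ± 7.19 TPM. Myh13, known from extraocular muscle, was at 0.131 ± 0.0695 TPM, and Myh15 was listed at 0 in all 6 libraries. Salmon gave several of the heavy chain genes fractional counts, as it does where reads match more than 1 transcript, so the split among them is less certain than their sum.

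The lowest library of Myl1, Mylpf and Myl4 lay above the highest library of every heavy chain gene. Myl1, the fast essential light chain, was at 4644 ± 461 TPM, with 4004 TPM in WT 2, a median of 4659.6 TPM and 5169 TPM in WT 4. Mylpf, the fast regulatory light chain, was at 2953 ± 449.9 TPM, with 2433 TPM in WT 6, a median of 2921 TPM and 3538 TPM in WT 2. Embryonic and atrial Myl4 was at 2089.8 ± 229 TPM. The slow and ventricular copies were low by comparison, Myl2 at 61.6 ± 10 TPM and Myl3 at 4.7 ± 1.88 TPM. Among filament partners, Mybph, a myosin-binding protein, was at 1575 ± 184 TPM, against 115 ± 9.04 TPM for slow Mybpc1, 48.9 ± 5.6 TPM for fast Mybpc2 and 0.12 ± 0.0584 TPM for cardiac Mybpc3. Titin, Ttn, the molecular spring of the sarcomere, was at 259 ± 58.7 TPM, and the M-band genes Myom2, Myom3 and Myom1 were at 241 ± 11.2 TPM, 60.3 ± 9.48 TPM and 52.9 ± 12.9 TPM. The small muscle protein gene Smpx varied most of the thick-filament list among genes of at least 5 TPM: it stood at 87.6 TPM in WT 2 and 263 TPM in WT 4.

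Thin-filament genes summed to 18828 ± 1762 TPM over 19 genes, of which 17 had at least 10 TPM. Tnnc1, the slow and cardiac troponin C, was at 3140.0 ± 278 TPM, whereas fast Tnnc2 was at 45.8 ± 15.7 TPM, with 23.5 TPM in WT 5, a median of 54.1 TPM and 58.1 TPM in WT 3. Slow troponin I, Tnni1, was at 2073 ± 288 TPM, fast Tnni2 at 483 ± 102 TPM and cardiac Tnni3 at 11.2 ± 5.33 TPM. In troponin T, the cardiac and embryonic copy Tnnt2 was at 706 ± 192 TPM, fast Tnnt3 at 385 ± 101 TPM and slow Tnnt1 at 229 ± 39.4 TPM. Tropomyosin genes, which lie along actin and block the myosin sites at rest, stood at 1588 ± 270.1 TPM for Tpm2, 1399 ± 191 TPM for Tpm1 and 272 ± 31.3 TPM for Tpm3. Nebulin, Neb, which runs along the thin filament, was at 137 ± 32.4 TPM, and the leiomodins Lmod2 and Lmod3, which nucleate it, were at 116 ± 9.97 TPM and 54.7 ± 8.66 TPM.

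**Figure D2:**
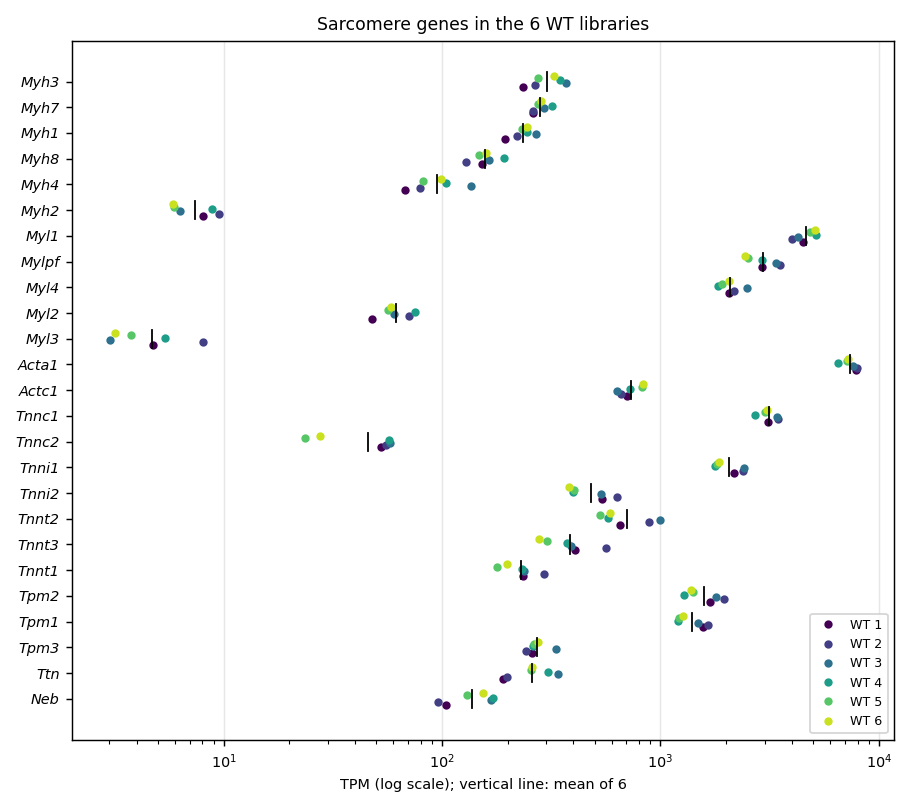
TPM (log scale) of 25 sarcomere genes in each of the 6 libraries, with the mean of 6 as a vertical line. Acta1 lies highest, between 6527 and 7929 TPM, and Myl3 lowest, between 3.02 and 8.02 TPM; the 5 main myosin heavy chains lie between them and partly overlap.

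To ask which member of a gene family was the more abundant, 46 pairs of related genes were compared within each library as the log2 ratio of (TPM + 0.1), with a two-sided exact sign-flip permutation test over the 6 libraries and Benjamini-Hochberg adjustment over the 46 pairs. With 6 libraries that test cannot give a p below 0.0313, which it gives whenever all 6 ratios have the same sign. By that rule 45 of 46 pairs (97.8%) passed, each at an exact adjusted p of 0.0319, the first-named gene being the higher in 19 and the second-named in 26. Since the pairs were chosen with earlier results of these data known, and nearly all passed, the size of the ratio and its SD say more than the call. The TPM ranges of the 2 genes still overlapped in 8 pairs: Tnnt3 and Tnnt2, Tnnt3 and Tnnt1, Myh1 and Myh3, Myh4 and Myh8, Myh7 and Myh1, Col1a1 and Col3a1, Cox6a2 and Cox6a1, and Sln and Pln.

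Within the sarcomere the ratios did not all point to the same stage or fibre type. Skeletal Acta1 exceeded cardiac Actc1 by a log2 ratio of 3.34 ± 0.23, about 10.1-fold, in 6 of 6 libraries. Fast Mylpf exceeded slow Myl2 by 5.58 ± 0.26, the widest ratio in favour of a first-named gene. The opposite held for troponin C, where fast Tnnc2 over slow and cardiac Tnnc1 gave -6.18 ± 0.57, and for troponin I, where fast Tnni2 over slow Tnni1 gave -2.12 ± 0.13. Troponin T was mixed: fast Tnnt3 over embryonic Tnnt2 gave -0.87 ± 0.30, while Tnnt3 over slow Tnnt1 gave 0.73 ± 0.15. Heavy chain ratios were small, -0.36 ± 0.11 for Myh1 over Myh3, -0.76 ± 0.29 for Myh4 over Myh8 and 0.27 ± 0.12 for Myh7 over Myh1. On counts not divided by length the last of these turned to -0.30. At the Z-disc, fast Actn3 over Actn2 gave 0.44 ± 0.09, while fast Myoz1 over slow Myoz2 gave -4.66 ± 0.42.

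**Figure D3:**
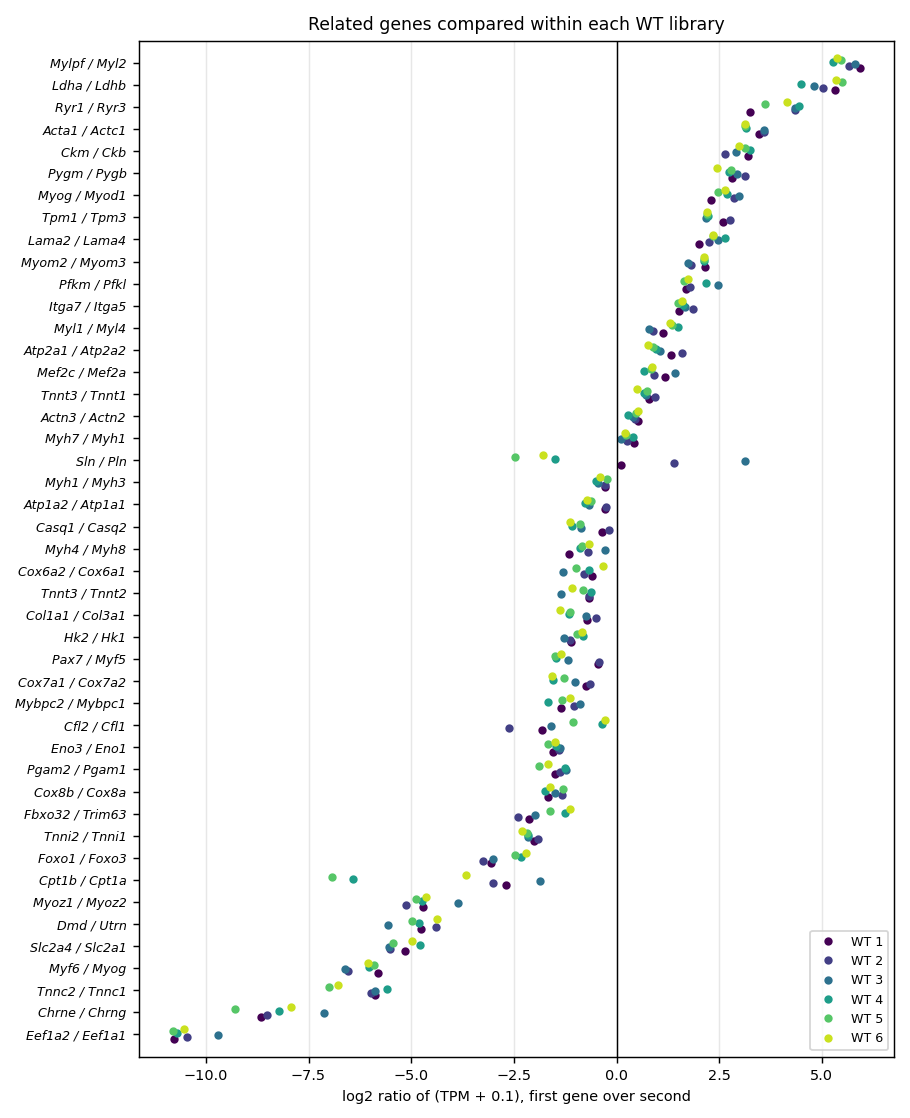
Log2 ratio of (TPM + 0.1), first gene over second, for 45 of the 46 pairs; each point is 1 of the 6 libraries and the vertical line marks equal levels. For Sln over Pln the 6 points lie on both sides of the line; for every other pair drawn they lie on 1 side.

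The Z-disc list, which joins neighbouring sarcomeres and carries strain sensors, held 18 of 21 genes at 10 TPM or more. Desmin, Des, the intermediate filament that links Z-discs, was at 1675 ± 217 TPM, with 1431 TPM in WT 4, a median of 1626 TPM and 2060.5 TPM in WT 3. The small heat shock protein Cryab, which binds desmin, was at 528 ± 91.9 TPM, the LIM proteins Fhl1 and Csrp3 at 407 ± 34.9 TPM and 269 ± 38.4 TPM, and filamin C, Flnc, at 205 ± 35.4 TPM. Telethonin, Tcap, which caps titin in mature Z-discs, stood at 25.9 ± 6.03 TPM, Xirp2 at 4.3 ± 1.16 TPM and Myoz3 at 0 to 0.586 TPM. Pdlim3, a Z-disc scaffold, was the steadiest gene of the list with a CV of 3.68%.

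The promoters of 4 genes are shown because they drive 2 pairs in which the transcripts of closely related proteins differed widely in level: the actins Acta1 and Actc1, and the acetylcholine receptor subunits Chrng and Chrne. Each is the stretch of 250 bases before the start of transcription in RefSeq on GRCm38.p6, written in the direction of the gene, at chr8:123894776-123895025 (minus strand) for Acta1, chr2:114052876-114053125 (minus strand) for Actc1, chr1:87205561-87205810 (plus strand) for Chrng and chr11:70619195-70619444 (minus strand) for Chrne. Capitals mark matches to the E-box CANNTG, the motif that MyoD and myogenin bind.
Acta1: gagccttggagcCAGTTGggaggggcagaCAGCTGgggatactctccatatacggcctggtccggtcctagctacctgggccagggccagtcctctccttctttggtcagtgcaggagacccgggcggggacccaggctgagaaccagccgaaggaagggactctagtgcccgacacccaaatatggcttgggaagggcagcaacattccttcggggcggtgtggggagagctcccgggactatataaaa
Actc1: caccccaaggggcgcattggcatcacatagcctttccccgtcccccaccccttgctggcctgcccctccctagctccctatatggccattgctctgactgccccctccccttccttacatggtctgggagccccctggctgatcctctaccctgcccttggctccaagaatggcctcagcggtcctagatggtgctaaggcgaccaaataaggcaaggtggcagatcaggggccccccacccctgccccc
Chrng: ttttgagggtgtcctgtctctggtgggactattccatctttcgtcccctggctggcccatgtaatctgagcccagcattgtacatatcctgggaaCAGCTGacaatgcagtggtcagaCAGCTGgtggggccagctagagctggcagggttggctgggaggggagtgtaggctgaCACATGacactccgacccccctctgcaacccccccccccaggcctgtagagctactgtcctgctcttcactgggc
Chrne: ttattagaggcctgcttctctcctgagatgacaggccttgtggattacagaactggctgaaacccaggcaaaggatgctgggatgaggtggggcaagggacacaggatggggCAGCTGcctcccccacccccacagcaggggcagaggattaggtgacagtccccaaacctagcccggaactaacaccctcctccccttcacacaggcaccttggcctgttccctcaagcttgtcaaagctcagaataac
The Acta1 stretch held 2 E-boxes, 1 of them CAGCTG; that of Actc1 held 0, that of Chrng 3, with 2 CAGCTG, and that of Chrne 1, which was CAGCTG. A match is a string of letters and not a measured binding site. Only these stretches were searched, so an E-box outside them is not counted, and a count of 0 does not speak for the rest of the promoter. CANNTG and its subset CAGCTG were searched in the same window of 32851 promoters, and since each reads the same on both strands, 1 search covered both. CANNTG was present in 66.2% of all promoters, in 82.1% of the 56 promoters of sarcomere genes of at least 10 TPM and in 54.7% of the 64 promoters of such matrix genes. Of 56 sarcomere genes at that level 45 had a promoter in the RefSeq table, and of 79 matrix genes 54 did. CAGCTG was present in 13.0%, 32.1% and 12.5% of the same sets. The set of all promoters, from 27025 genes, was not limited to expressed genes, so it is not a background matched by level. Where a gene had several promoters, each was counted.

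Excitation-contraction coupling turns a membrane action potential into calcium release from the sarcoplasmic reticulum. On the release side, the ryanodine receptor Ryr1 was at 69 ± 13.3 TPM, its voltage sensor Cacna1s at 86.8 ± 6.9 TPM, the adaptor Stac3 at 46.4 ± 6.85 TPM, and the junctophilins Jph2 and Jph1, which hold the 2 membranes together, at 134 ± 22.7 TPM and 30.1 ± 6.36 TPM. The calcium channel subunit Cacng1 stood higher, at 305 ± 29.7 TPM. Ryr1 exceeded Ryr3, a second receptor known from immature muscle, by a log2 ratio of 4.03 ± 0.49. Bin1, which shapes the transverse tubules, was at 773 ± 86.5 TPM. On the uptake side, the fast calcium pump Atp2a1 was at 868 ± 73.1 TPM, with 794 TPM in WT 5, a median of 847 TPM and 973 TPM in WT 2. The slow and housekeeping pump Atp2a2 was at 407 ± 59.5 TPM, a log2 ratio of 1.10 ± 0.30 in favour of Atp2a1. Of the calcium stores, slow and cardiac Casq2 was at 299 ± 72.2 TPM and fast Casq1 at 172 ± 4.94 TPM, a log2 ratio of Casq1 over Casq2 of -0.75 ± 0.40. Casq1 had 1 of the 10 smallest CVs (2.87%) among genes of at least 50 TPM, with predicted genes and Rik names left out. Casq2 ranged from 195 TPM in WT 2 to 385 TPM in WT 6. The pump inhibitors had low levels: Sln was at 0.879 ± 0.491 TPM, Mrln at 6.66 ± 2.26 TPM, and Pln at 1.68 TPM in WT 1, 0.281 in WT 2, 0 in WT 3, 2.54 in WT 4, 3.01 in WT 5 and 1.85 in WT 6. The log2 ratio of Sln over Pln was -0.18 ± 2.15 (exact permutation test, adjusted p = 0.844), with Sln higher in 3 libraries and lower in 3. Parvalbumin, Pvalb, the calcium buffer of adult fast fibres, was at 19.6 ± 4.18 TPM.

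In the acetylcholine receptor, the gamma subunit Chrng, which is replaced in innervated adult muscle by the epsilon subunit, was at 306 ± 34.1 TPM, with 258 TPM in WT 4, a median of 298 TPM and 356 TPM in WT 3. Chrne, the epsilon subunit, was at 1.03 ± 0.735 TPM, and its highest library, WT 3 at 2.44 TPM, lay far below the lowest of Chrng. The log2 ratio of Chrne over Chrng was -8.29 ± 0.73. Chrne rested on 72 estimated counts over the 6 libraries, and the log2 ratio was -7.30 with a pseudocount of 1 TPM and -8.97 on counts not divided by length. The other subunits Chrna1, Chrnd and Chrnb1 were at 173 ± 19.3 TPM, 151 ± 6.83 TPM and 56 ± 8.92 TPM. Of the proteins that gather receptors under the nerve ending, the kinase Musk was at 58.7 ± 2.67 TPM, rapsyn, Rapsn, at 52.2 ± 7.73 TPM, the agrin receptor Lrp4 at 36.9 ± 9.92 TPM and the adaptor Dok7 at 13.3 ± 2.33 TPM. Agrin itself, Agrn, was at 13.8 ± 2.23 TPM, and acetylcholinesterase, Ache, at 6.15 ± 2.02 TPM. The skeletal sodium channel Scn4a was at 50 ± 9.94 TPM. The chloride channel Clcn1, which stabilises the resting potential of adult fibres, was at only 0.251 ± 0.121 TPM, and the potassium channels Kcnj2, Kcnj11 and Kcnc1 were at 2.72 ± 0.773 TPM, 1.92 ± 1.14 TPM and 0.661 ± 0.148 TPM.

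The dystrophin complex ties the cytoskeleton to the matrix. All 16 listed genes reached 1 TPM and 14 reached 10 TPM. Dystroglycan, Dag1, led at 198 ± 9.8 TPM, the sarcoglycan Sgca was at 93.9 ± 13.9 TPM, and Cav3, the caveolin of muscle, at 83.2 ± 13.1 TPM. Dystrophin itself, Dmd, was the lowest of the list at 1.6 ± 0.387 TPM, from 1.15 TPM in WT 3 through a median of 1.6 to 2.21 TPM in WT 6. Its relative utrophin, Utrn, which takes its place in immature and regenerating fibres, was at 47.5 ± 9.72 TPM, a log2 ratio of Dmd over Utrn of -4.81 ± 0.44, or -4.21 with a pseudocount of 1 TPM.

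Of 17 transcription factors of myogenesis, 15 reached 1 TPM and 9 reached 10 TPM. Myogenin, Myog, was at 499 ± 107 TPM, with 374 TPM in WT 1, a median of 485 TPM and 692 TPM in WT 3. Myod1 was at 77.9 ± 6.38 TPM, and Myog exceeded it by a log2 ratio of 2.66 ± 0.24. Myf6, a factor of later muscle, was at 6.8 ± 0.701 TPM, and Myf5, a factor of myoblasts, at 12 ± 3.34 TPM. Pax7, the marker of satellite cells, was at 5.6 ± 1.22 TPM and Pax3 was listed at 0. The partner factors Mef2c, Mef2d and Mef2a were at 144 ± 13.4 TPM, 118 ± 9.75 TPM and 73.2 ± 12 TPM. Six4 and the coactivator Eya4 were at 9.24 ± 2.51 TPM and 28.5 ± 3.29 TPM. Among regulators of fibre type, Tead1, Tead4 and Vgll3 were at 54.1 ± 10.9 TPM, 52.3 ± 2.48 TPM and 43.4 ± 7.39 TPM, Prox1 at 3.43 ± 0.96 TPM, and Sox6, a repressor of slow genes, at 0 to 0.495 TPM. The class IIa histone deacetylases Hdac5 and Hdac4, which restrain Mef2, were at 89.1 ± 17.2 TPM and 40.2 ± 5.67 TPM.

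Of 17 genes of myoblast fusion, 14 reached 1 TPM and 4 reached 100 TPM. Mymk, which encodes myomaker, was at 548 ± 43.5 TPM, with 494 TPM in WT 2, a median of 539.6 TPM and 626 TPM in WT 3. Its partner Mymx, which completes the fusion pore, was at 196 ± 28.6 TPM. The tetraspanins Cd81 and Cd9, known to limit fusion, were at 626 ± 47.8 TPM and 145 ± 33.3 TPM, and M-cadherin, Cdh15, at 93.6 ± 17.1 TPM. Tmem182, another gene tied to limiting fusion, ranged from 34.9 TPM in WT 2 to 104 TPM in WT 6. Adgrb3 and Nphs1 were listed at 0, and Adgrb1 was at 0 to 0.688 TPM.

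Genes of cell cycle exit and of division were both read. The inhibitor Cdkn1a (p21) was at 842 ± 70.1 TPM, with 763 TPM in WT 2, a median of 826 TPM and 969 TPM in WT 3, and cyclin D3, Ccnd3, which is known to rise in myotubes, at 347 ± 48.2 TPM. Genes of cycling cells were detected in every library: Cdk1 was at 30.6 ± 6.6 TPM, Ccnb1 at 23.2 ± 4.04 TPM, Top2a at 23.1 ± 8.52 TPM and Mki67 at 10.3 ± 5.42 TPM, the last from 4.05 TPM in WT 1 to 18.6 TPM in WT 4. In whole cultures such as these, a smaller number of expressing cells and less RNA per cell cannot be told apart. Of the Notch pathway, which holds muscle precursors undifferentiated, Hes1 was at 47 ± 13.5 TPM, Heyl at 1.82 ± 0.566 TPM and Notch3 at 31.1 ± 5.92 TPM. Id3, an inhibitor of MyoD-type factors, was at 25.9 ± 4.61 TPM, and Hes6, which favours differentiation, at 102 ± 19.4 TPM.

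In the IGF system, in a medium that held IGF-1, the binding protein Igfbp5 was at 794 ± 148 TPM, with 594 TPM in WT 1, a median of 864 TPM and 922 TPM in WT 6. The ligand gene Igf2 was at 478 ± 97.4 TPM and Igf1 at 2.13 ± 1.11 TPM. Their receptors Igf2r, Insr and Igf1r were at 43.1 ± 8.32 TPM, 22.5 ± 5.39 TPM and 11.6 ± 1.25 TPM. Myostatin, Mstn, which restrains muscle growth, was at 0.978 ± 0.536 TPM, and its antagonist follistatin, Fst, was at 53.3 ± 13 TPM. Of the atrophy ligases, Trim63 was at 43.6 ± 5.24 TPM and Fbxo32 at 13.1 ± 3.27 TPM. The log2 ratio of Fbxo32 over Trim63 was -1.75 ± 0.50, and on counts not divided by length it was 0.24.

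Of 102 matrix and adhesion genes, 82 had a mean of at least 5 TPM. Sparc, a calcium-binding matrix glycoprotein of remodelling tissue, led at 2339 ± 224 TPM, with 1983 TPM in WT 4, a median of 2388 TPM and 2651 TPM in WT 3. The proteoglycan biglycan, Bgn, was at 1331 ± 254 TPM, osteopontin, Spp1, a matrix protein of regenerating muscle, at 1112 ± 197 TPM, and fibronectin, Fn1, at 794 ± 146 TPM. Of 21 collagen genes, 18 reached 1 TPM, 14 reached 10 TPM and 5 reached 100 TPM. Fibrillar Col3a1 was at 808 ± 209 TPM, with 538 TPM in WT 1, a median of 883 TPM and 1008 TPM in WT 3. The type I chains Col1a2 and Col1a1 were at 560.1 ± 135 TPM and 417 ± 96.9 TPM, and each was lowest in WT 1 and highest in WT 3 as Col3a1 was. The log2 ratio of Col1a1 over Col3a1 was -0.94 ± 0.33, with overlapping TPM ranges. The microfibril collagen Col6a1 was at 164 ± 12.1 TPM and the cartilage collagen Col2a1 at 0.0962 ± 0.0584 TPM.

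In the basement membrane, the sheet that wraps each fibre, perlecan (Hspg2) was at 160.1 ± 44 TPM, nidogen Nid1 at 122 ± 25 TPM and collagen Col4a1 at 69.4 ± 11.8 TPM. The laminin chains Lamc1, Lamb1 and Lama2 were at 64.9 ± 10.9 TPM, 37 ± 6.29 TPM and 46.3 ± 11.9 TPM. The adult muscle chain Lama2 exceeded Lama4, known from early muscle and vessels, by a log2 ratio of 2.34 ± 0.21, and the embryonic chain Lama1 was at 0.0426 ± 0.0314 TPM. The laminin receptor chain Itga7 was at 442 ± 63.1 TPM and exceeded the fibronectin receptor chain Itga5 by 1.62 ± 0.13. Their common partner Itgb1 was far less steady, with 185 TPM in WT 2, a median of 408 TPM and 646 TPM in WT 6. Among enzymes that make or cut matrix, the collagen chaperone Serpinh1 was at 551 ± 73.6 TPM, the gelatinase Mmp2 at 457 ± 68.4 TPM, its inhibitor Timp2 at 473 ± 83.3 TPM and the crosslinking enzyme Lox at 211 ± 60.4 TPM. Mmp9 was at 0.363 ± 0.379 TPM, and plasminogen, Plg, the precursor of plasmin, had 1 count in the 6 libraries together. The plasminogen activator Plau was at 102 ± 27.2 TPM and its receptor Plaur at 26.9 ± 3.92 TPM. Elastin, Eln, was at 0.166 ± 0.0594 TPM and Fbn2 was listed at 0.

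The 22 glycolysis genes summed to 21758 ± 1857 TPM. Behind Gapdh came aldolase Aldoa at 3497 ± 393 TPM, pyruvate kinase Pkm at 1917 ± 199 TPM and Gpi1 at 1494 ± 178 TPM. Gapdh was lowest in WT 4 at 6597 TPM, had a median of 8347 TPM and was highest in WT 2 at 9336 TPM. Muscle forms did not lead throughout: Eno3 over the ubiquitous Eno1 gave a log2 ratio of -1.49 ± 0.10, and Pgam2 over Pgam1 gave -1.49 ± 0.25, whereas Pfkm over the liver form Pfkl gave 1.91 ± 0.33 and Ldha over the heart form Ldhb gave 5.09 ± 0.38. The insulin-regulated glucose transporter Slc2a4 was at 4.47 ± 0.967 TPM and the ubiquitous Slc2a1 at 170.1 ± 22.5 TPM, a log2 ratio of -5.24 ± 0.31. Glycogen genes included the synthase Gys1 at 164 ± 8.97 TPM and the phosphorylase Pygm at 137 ± 5.25 TPM, and Pygm exceeded the brain form Pygb by 2.81 ± 0.23. Pygm was also among the steadiest genes, with a CV of 3.84%.

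Of 12 genes of the creatine kinase system, myoglobin and related enzymes, 9 reached 10 TPM. Myoglobin, Mb, which holds oxygen in muscle, was at 2531 ± 457 TPM, with 2089 TPM in WT 3, a median of 2418 TPM and 3188 TPM in WT 1. Muscle creatine kinase, Ckm, was at 478 ± 29.5 TPM and exceeded the brain form Ckb by a log2 ratio of 3.02 ± 0.22, while the mitochondrial form Ckmt2 was at 52.9 ± 9.74 TPM. Ampd1, the AMP deaminase of adult muscle, was at 2.85 ± 1.83 TPM and its relative Ampd3 at 41.2 ± 9.15 TPM. Of the tricarboxylic acid cycle, malate dehydrogenase Mdh2 was at 264 ± 33.2 TPM and citrate synthase Cs at 239 ± 21.4 TPM. The muscle carnitine transferase Cpt1b, the gate for fatty acids into mitochondria, was at 2.62 TPM in WT 1, 1.32 in WT 2, 3.25 in WT 3, 0 in WT 4, 0 in WT 5 and 1.32 in WT 6, and the liver form Cpt1a at 13.2 ± 3.68 TPM. The log2 ratio of Cpt1b over Cpt1a, -4.09 ± 2.09, had the largest SD of the pairs that passed, since in the libraries with little or no Cpt1b it is set by the added 0.1 TPM. With 1 TPM added it was -2.73.

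Nuclear genes of oxidative phosphorylation summed to 15515 ± 913 TPM, and 83 of 89 reached 10 TPM. The ATP synthase subunit Atp5f1b led at 1272 ± 133 TPM. In the pairs of cytochrome oxidase, the muscle and heart forms were the lower ones: Cox8b over Cox8a gave a log2 ratio of -1.52 ± 0.18, Cox7a1 over Cox7a2 -1.13 ± 0.39 and Cox6a2 over Cox6a1 -0.77 ± 0.34. The last of these no longer passed on counts not divided by length (-0.42, exact permutation test, adjusted p = 0.0669). The coactivators of mitochondrial growth Ppargc1a and Ppargc1b were at 4.34 ± 0.98 TPM and 6.92 ± 3.11 TPM, their partner Esrra at 34.5 ± 4.21 TPM and Tfam, which maintains mitochondrial DNA, at 11.1 ± 4.31 TPM.

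Mitochondrially encoded transcripts were the least steady class. The cytochrome oxidase subunit mt-Co1 stood at 2903 TPM in WT 1, 758 in WT 2, 2878 in WT 3, 7939 in WT 4, 5588 in WT 5 and 8032 in WT 6. Cytochrome b, mt-Cytb, stood at 399.5 TPM in WT 1, 139 in WT 2, 282 in WT 3, 811 in WT 4, 559 in WT 5 and 786 in WT 6. Both were lowest in WT 2 and highest in WT 4 and WT 6. Over all 13 genes the sum was 1822 TPM in WT 2, from 6127 to 6691 TPM in WT 3 and WT 1, 12039 TPM in WT 5 and from 17948 to 18275 TPM in WT 4 and WT 6. For 2 genes at least 1 library was listed at 0: mt-Co3 stood at 58.7 TPM in WT 1, 20.4 in WT 2, 189 in WT 3, 0 in WT 4, 497 in WT 5 and 1008 in WT 6, and mt-Nd3 at 0 TPM in WT 1, 0 in WT 2, 0 in WT 3, 0 in WT 4, 0 in WT 5 and 329 in WT 6. A zero cannot be read as absence for genes that every respiring cell uses, and no mean is given for these 2.

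Translation genes held the highest share of TPM among the listed protein-coding classes. Of 82 ribosomal protein genes, 78 reached 100 TPM and 42 reached 1000 TPM, with a median of 1022 TPM. Rpl41 led at 7839.6 ± 1436 TPM and Rps12 followed at 4501 ± 362 TPM. Eef1a2, the elongation factor that takes over in adult muscle, was at 6.03 ± 1.14 TPM, and its log2 ratio over the ubiquitous Eef1a1 was -10.49 ± 0.41, the widest of the 46 pairs. Tpt1, the translationally controlled tumour protein gene, was at 7452 ± 960.3 TPM.

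Besides H19, Malat1, a nuclear-retained RNA, was at 1350.0 TPM in WT 1, 427 in WT 2, 2075 in WT 3, 3546 in WT 4, 2718 in WT 5 and 4352 in WT 6. It followed the mitochondrially encoded sum at the ends, lowest in WT 2 and highest in WT 6. Neat1, the scaffold of paraspeckles, was lowest in WT 2 as well, at 78.3 TPM, and highest in WT 3, at 262 TPM. Meg3, Mirg and Dlk1, imprinted genes of 1 shared cluster, were listed at 0 in all 6 libraries and Rian had 1 count in total.

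Markers of other cell types were measured to check the label. The skeletal muscle markers Acta1, Ckm, Myh3, Myh1, Myog, Ttn, Ryr1 and Des all stood above 50 TPM in every library. Smooth muscle markers were mixed: Acta2, which myoblasts and myofibroblasts also express, was at 1048 ± 87 TPM, Tagln at 164 ± 24.5 TPM and Actg2 at 81.6 ± 6.32 TPM, while the defining genes Myh11 and Myocd were at 0.101 ± 0.0469 TPM and at most 0.0957 TPM. Of the 8 smooth muscle markers, 6 reached 1 TPM, 4 reached 10 TPM and 3 reached 100 TPM, and not all of these are named here. Summed, the 8 markers came to 1430 ± 119 TPM. Of 10 markers of fibroblasts and adipogenic progenitors, 7 reached 1 TPM and 4 reached 10 TPM, and together they summed to 746 ± 147 TPM. Among them, Ly6a was at 562 ± 132 TPM and Cd34 at 84.3 ± 15.1 TPM, Pdgfra at 5.72 ± 0.796 TPM, and Thy1 and Tcf21 were listed at 0. Of the 10 bone and cartilage markers, 4 reached 1 TPM and 3 reached 10 TPM, and not all of these are named here. Bglap2 was at 77.4 ± 22.3 TPM and Runx2 at 27.2 ± 4.52 TPM, with Sp7 at no more than 0.0778 TPM in any library and Ibsp listed at 0. The 6 adipocyte markers summed to 0.0625 ± 0.0771 TPM. Endothelial markers summed to 5.53 ± 1.55 TPM with Pecam1, Tie1 and Emcn at 0, and immune markers to 28.1 ± 3.40 TPM, nearly all from Cd68 at 23.8 ± 3.88 TPM, with Adgre1, Cd3e and Tyrobp at 0. Nerve and glia markers summed to 14.4 ± 3.73 TPM, led by Tubb3 at 12.5 ± 3.7 TPM, with Rbfox3, Snap25 and Chat at 0. The part of Acta2, Ly6a or Bglap2 in the matrix levels was not tested.

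The spread of a level between the 6 libraries was smaller at higher TPM. Over 9892 genes of at least 5 TPM the median CV was 20.9%, with a jackknife standard error of 1.74 percentage points over the libraries. It fell from 28.4% for genes of 5 to 10 TPM to 20.1% for 10 to 100, 14.3% for 100 to 1000 and 13.5% at 1000 TPM and above. Counting error alone would give 8.72%, 4.73%, 2.18% and 0.966% in the same ranges. The median CV was 15.8% for sarcomere genes, 16.02% for excitation and membrane genes, 17.7% for matrix genes, 15.2% for nuclear energy genes, 13.4% for translation genes, 19.1% for regulators and 70.3% for mitochondrially encoded genes. Genes of at least 50 TPM were ranked by CV with predicted genes (Gm followed by digits) and Rik names left out, which gave 2286 genes. In this ranking the smallest CVs were those of Ybx3 (2.29%), a cold-shock RNA-binding protein, the zinc transporter Slc39a7 (2.29%) and Casq1. The 10 largest were those of mt-Nd3, mt-Co3 and mt-Nd4l, the small nuclear RNAs Rnu1a1 and Rnu2-10, the nucleolar RNA Snord3b1, Rn18s-rs5, the pseudogene Ubb-ps and the genes listed as ENSMUSG00000141422 and ENSMUSG00000136525. Rnu1a1 was at 701 TPM in WT 1, 0 in WT 2, 0 in WT 3, 0 in WT 4, 0 in WT 5 and 0 in WT 6 and Snord3b1 at 249 TPM in WT 1, 0 in WT 2, 0 in WT 3, 155 in WT 4, 0 in WT 5 and 167 in WT 6. Rn18s-rs5, a ribosomal RNA sequence, ran from 0.567 TPM in WT 2 to 12256 TPM in WT 1.

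Whether the main classes rose and fell together over the libraries was asked with 3 correlations of summed TPM over 6 libraries, with exact two-sided permutation p-values adjusted over the 3. Shares of 1 total are not independent of each other. Sarcomere and matrix sums gave Pearson's r = -0.09 (exact p = 0.829, adjusted p = 0.829; Spearman's rho = 0.03, exact p = 1.00). Without WT 2 and WT 3, the libraries farthest from the sarcomere median, r was -0.42. Sarcomere and mitochondrially encoded sums gave r = -0.82 (exact p = 0.0611, adjusted p = 0.183; rho = -0.77, exact p = 0.103), and -0.66 without those 2 libraries. Sarcomere sum and Malat1 gave r = -0.67 (exact p = 0.144, adjusted p = 0.217; rho = -0.66, exact p = 0.175), and -0.56 without them. None of the 3 passed. With the 6 structural RNAs out of the total, an alternative chosen after seeing the data, the last 2 both gave r = -0.87 (exact permutation test, adjusted p = 0.0542 each).

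**Figure D4:**
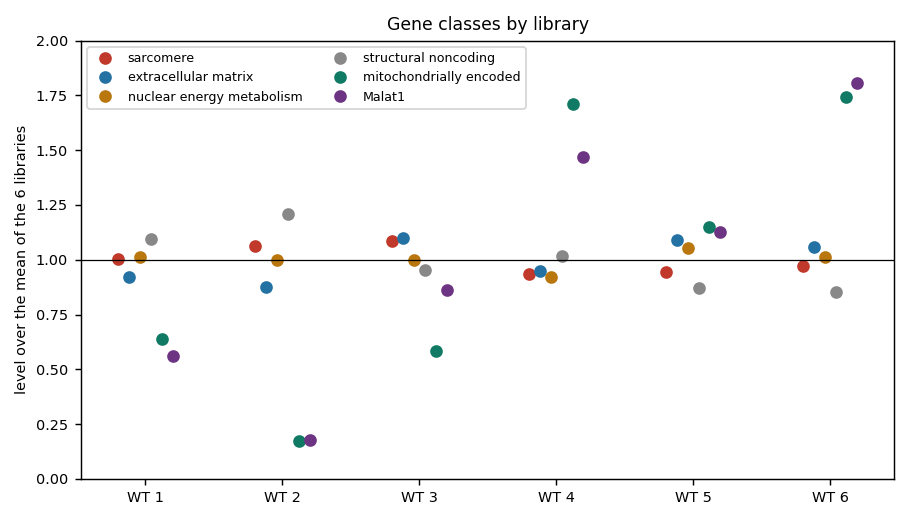
Level of 5 gene classes and of Malat1 in each library, divided by the mean of the 6 libraries (line at 1). Sarcomere, matrix and nuclear energy genes stay near the line in all 6 libraries, while mitochondrially encoded genes and Malat1 are far below it in WT 2 and far above it in WT 4 and WT 6.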

How the data were processed

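RNA-seq was analysed in the 6 libraries labelled wild type, out of 12. The authors deposited estimated counts per gene and TPM made with Salmon, per the file headers and the submitters' processing notes. Those notes also name STAR, BWA 0.7.12-r1039 and bedtools 2.25.0 and the builds mm10, hg19 and GRCm39, without saying which step used which. No coordinate of the files is therefore used. Replicates were deposited separately.

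From these values, the 78298 rows were summed into 77981 symbols (312 symbols had several IDs). Means, SDs, CVs and class sums were computed per library with Python 3.11.15, numpy 2.4.6, pandas 2.3.3 and scipy 1.17.1 after a check of the statistics on simulated data. Ratios of 46 gene pairs used a pseudocount of 0.1 TPM and a threshold of adjusted p of 0.05. Genes were named if in a list or pair, among the 25 most abundant, or among the 10 highest and 10 lowest CVs at 50 TPM or more. That ranking by CV left out predicted genes (Gm followed by digits) and Rik names. The members, lists and pairs were chosen with earlier results of these data known. Promoter and microRNA sequences are RefSeq's on GRCm38.p6. Some listed genes and 1 of the 46 pairs are counted in the totals but not reported here by name.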

Additional observations from a re-analysis of the deposited data

Results flagged for a closer look

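Within the 6 libraries, 269 values (the genes named above and the class shares) were examined for a single library far from the other 5, by a gap over range above Dixon's critical value for 6 samples. Chance alone marks about 1 group in 20 among values not picked by their spread. That rate is no yardstick here, since some genes were named for their large CV. Others, such as Myocd and Plg, were above 0 in 1 library only. The test was not run over all expressed genes, so the counts that follow have no background share. They cannot be read as particular to 1 library or to the genes marked. The test marked 23, of which 12 had WT 3 as the library apart, each time as the highest. These 12 were Cacna1s (100.03 TPM), Chrne (2.44 TPM), Col1a1 (604 TPM), Col1a2 (826 TPM), Dok7 (17.9 TPM), Hspg2 (245 TPM), Igf1 (4.31 TPM), Itga7 (564 TPM), Myom1 (76.3 TPM), Runx2 (36.2 TPM), Timp2 (637 TPM) and Tpm3 (332 TPM). In the other 5 libraries Col1a1 lay between 329.6 and 426 TPM, Itga7 between 379 and 435 TPM and Chrne between 0.372 and 1.11 TPM.

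In WT 1 the highest values standing apart were those of Rn18s-rs5 (12256 TPM, against at most 2372 TPM elsewhere), Rnu1a1 (701 TPM, listed at 0 elsewhere), ENSMUSG00000136525 (4187 TPM), ENSMUSG00000141422 (364 TPM), Sln (1.80 TPM), Adgrb1 (0.688 TPM) and Myocd (0.0957 TPM). In other libraries they were mt-Nd3 (329 TPM in WT 6, listed at 0 elsewhere), mt-Nd4l (571 TPM in WT 4), Rian (0.101 TPM in WT 5) and Plg (0.0410 TPM in WT 2). Adgrb1, Myocd, Rian and Plg rest on a few counts.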

How the results depend on the processing

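No paired analysis was possible because 1 group only was used. On estimated counts not divided by length, the class shares were 4.98% for sarcomere, 1.83% for excitation and membrane, 4.29% for matrix, 4.07% for nuclear energy metabolism, 6.26% for translation, 1.43% for regulators and 3.5001% for long noncoding genes. With the 6 structural RNAs out of the total, an alternative chosen after seeing the data, they were 5.30%, 1.24%, 2.24%, 6.34%, 17.0%, 0.862% and 3.24%. The mitochondrially encoded share moved by less than its SD under these alternatives, and leaving out each library in turn moved no class share by more than its SD. The same held with the median over libraries and without mitochondrially encoded genes and Malat1. Counts of genes above a level stayed within 1.5 times under every alternative tried.

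On counts not divided by length, 4 pairs turned: Myh7 over Myh1 to -0.30, Sln over Pln to 0.26, Pax7 over Myf5 to 0.33 and Fbxo32 over Trim63 to 0.24, and Cox6a2 over Cox6a1 no longer passed, while 41 kept direction and call. With a pseudocount of 1, and without any in the 44 pairs free of a 0, every pair kept both. On counts the correlation of sarcomere with matrix sums was 0.42 in place of -0.09 (exact permutation test, adjusted p = 0.396). On counts, sarcomere with mitochondrially encoded sums gave -0.84 and with Malat1 -0.81 (exact permutation test, adjusted p = 0.0792 each), in place of -0.82 and -0.67. The median CV was 25.1% with genes down to 1 TPM, and 19.02% to 21.6% with each library left out, the lowest without WT 2. The causes were not tested. Depth limits genes where a few counts set the level, and TPM alone does not mark them, since counts also follow transcript length. Mrln at 6.66 TPM had a mean of 13.8 counts per library and Tnni3 at 11.2 TPM had 32.7. Dmd at 1.60 TPM had 151.7.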

Other observations

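Chosen after the values were seen, the order of the 6 libraries for Malat1 (WT 2 lowest, then WT 1, WT 3, WT 5, WT 4 and WT 6) was compared with that of all 9810 genes of at least 5 TPM with 6 different values. The same order was found for 600 genes (6.12%) and the opposite order for 28 (0.285%); genes share their libraries and are not independent. The 600 had a median CV of 36.04%. Among the 561 listed genes in the comparison, 27 (4.81%) shared the order and 4 had the opposite order: Tnni2, Irs2, Pdk4 and Rpl19.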
